A study of Mus musculus with 4 samples.

Results

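The genes described here encode small leucine-rich proteoglycans: decorin (Dcn), lumican (Lum), fibromodulin (Fmod), biglycan (Bgn) and osteoglycin, also called mimecan (Ogn). They were chosen by name, with earlier results of these data known, and a probe set was taken where the platform annotation lists a single gene symbol and that symbol is one of these. All 5 genes were on the array, with 8 of its 12422 non-control probe sets, among 8251 genes in all. Dcn and Lum had a single probe set each, and Fmod, Bgn and Ogn had a pair each.

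The signals come from cultured mouse embryonic fibroblasts hybridised to single-colour Affymetrix U74Av2 arrays, 1 array for each of 4 groups. These were Xiap knockout cells treated with TNF (20 ng/ml for 4 hours), unstimulated Xiap knockout cells, wild-type cells treated with TNF in the same way, and unstimulated wild-type cells. Xiap encodes an inhibitor of caspases, and TNF is an inflammatory cytokine that signals through NF-kB. Cells were confluent, and the labels give neither strain, age of the embryos nor the number of embryos or clones behind a culture. With 1 array per group no test was possible, every difference below lacks a replicate check, and a difference between the genotypes cannot be told apart from any other difference between the cultures.

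Small leucine-rich proteoglycans are secreted proteins built around a row of leucine-rich repeats, and most carry glycosaminoglycan chains. They bind collagen fibrils and set their width and spacing, and fibroblasts of skin, tendon and cornea are major sources of them. Decorin and biglycan are close relatives that carry chondroitin or dermatan sulfate and bind TGF-beta. Lumican and fibromodulin belong to a different class with keratan sulfate chains, and osteoglycin to yet another.

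Promoter sequences were available here for Fmod, Bgn and Ogn, and they are shown as the genomic context of the members with a higher or similar signal in knockout cells. Each is the RefSeq stretch from 250 bases before to 50 bases after the annotated start on GRCm38.p6, plus strand, at chr1:134037004-134037303 for Fmod, chr13:49607765-49608064 for Ogn and chrX:73483351-73483650 for Bgn. Capitals mark matches to the motifs searched.
Fmod: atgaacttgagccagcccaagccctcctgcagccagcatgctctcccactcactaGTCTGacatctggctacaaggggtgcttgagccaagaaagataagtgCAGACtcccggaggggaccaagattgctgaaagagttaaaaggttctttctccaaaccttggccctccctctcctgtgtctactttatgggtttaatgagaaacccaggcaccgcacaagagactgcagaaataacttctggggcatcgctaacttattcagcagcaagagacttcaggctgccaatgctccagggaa
Ogn: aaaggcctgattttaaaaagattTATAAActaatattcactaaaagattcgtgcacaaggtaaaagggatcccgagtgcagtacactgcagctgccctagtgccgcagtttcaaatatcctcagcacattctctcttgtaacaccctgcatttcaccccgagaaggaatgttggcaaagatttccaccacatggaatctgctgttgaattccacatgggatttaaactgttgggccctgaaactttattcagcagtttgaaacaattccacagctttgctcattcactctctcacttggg
Bgn: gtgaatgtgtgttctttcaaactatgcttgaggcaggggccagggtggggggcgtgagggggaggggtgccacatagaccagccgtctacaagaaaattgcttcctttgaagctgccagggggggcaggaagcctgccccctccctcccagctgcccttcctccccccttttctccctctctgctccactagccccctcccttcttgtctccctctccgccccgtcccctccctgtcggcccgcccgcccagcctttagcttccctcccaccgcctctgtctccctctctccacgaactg
The motifs were the AP-1 site TGANTCA, the SMAD element CAGAC and the NF-kB consensus on both strands, and TATAAA on the plus strand, with no overlap between the matches found. The Fmod window held CAGAC 195 bases before the start on the minus strand and 148 bases before it on the plus strand, and 49.6% of 32851 promoters of this length hold that motif. The Ogn window held TATAAA 227 bases before the start, a motif found in 8.32% of promoters. No match to the AP-1 site (found in 7.81% of promoters) or the NF-kB consensus (8.46%) was found in these 3 windows. The Bgn window was 63.7% G and C, the Fmod window 51.0% and the Ogn window 42.3%, against a median of 52.7% over all promoters.

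Arrays had been scaled to a common trimmed mean of 500.3, and median signals were 173 and 179 in TNF-treated and unstimulated knockout cells and 151 and 183 in TNF-treated and unstimulated wild-type cells. A signal floor of 92.5, the 40th percentile of all non-control signals, was set before taking log2, and a gene was counted as measured where at least 1 of the arrays compared lay above it. A ratio with 1 side below the floor is a lower bound. Xiap was dim, and its brightest probe set gave 120 and 180 in TNF-treated and unstimulated knockout cells, against 126 and 239 in wild-type cells. The sources used here do not give the deleted part of Xiap, so this probe set does not check the genotype labels. Xist, made from the inactive X chromosome, had signals of 1601 and 1232 on the knockout arrays, against 5.4 and 34.3 on the wild-type arrays with and without TNF. The Y-linked Eif2s3y ran the opposite way, at 9.1 and 2.8 in the knockout against 308 and 489 in the wild type. These differences between the cultures run with the genotype labels. Their part in the results below cannot be told apart from that of Xiap and was not tested.

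Between the genotypes, Dcn and Lum were lower in knockout cells, Fmod was higher, and Bgn and Ogn stayed within 2-fold, in the unstimulated and in the TNF-treated pair of arrays alike. Counted at 2-fold, 1 of the 5 genes was higher and 2 were lower in unstimulated knockout cells, where 9.25% of 6062 measured genes passed 2-fold (4.55% higher and 4.7% lower). Under TNF the counts were again 1 higher and 2 lower, where 10.6% of 5852 genes passed (5.62% higher and 5.01% lower, or 240 genes higher and 441 lower with array medians made equal). The 3 genes passed 2-fold in the same direction in both pairs, as did 6.17% of the 5740 genes measured in both. The pairs differ in treatment and are not replicates. The median log2 ratio of the 5 genes was -0.23 without and -0.34 with TNF, beside medians of -0.01 and 0.07 over all measured genes, with members on both sides.

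**Figure D1:**
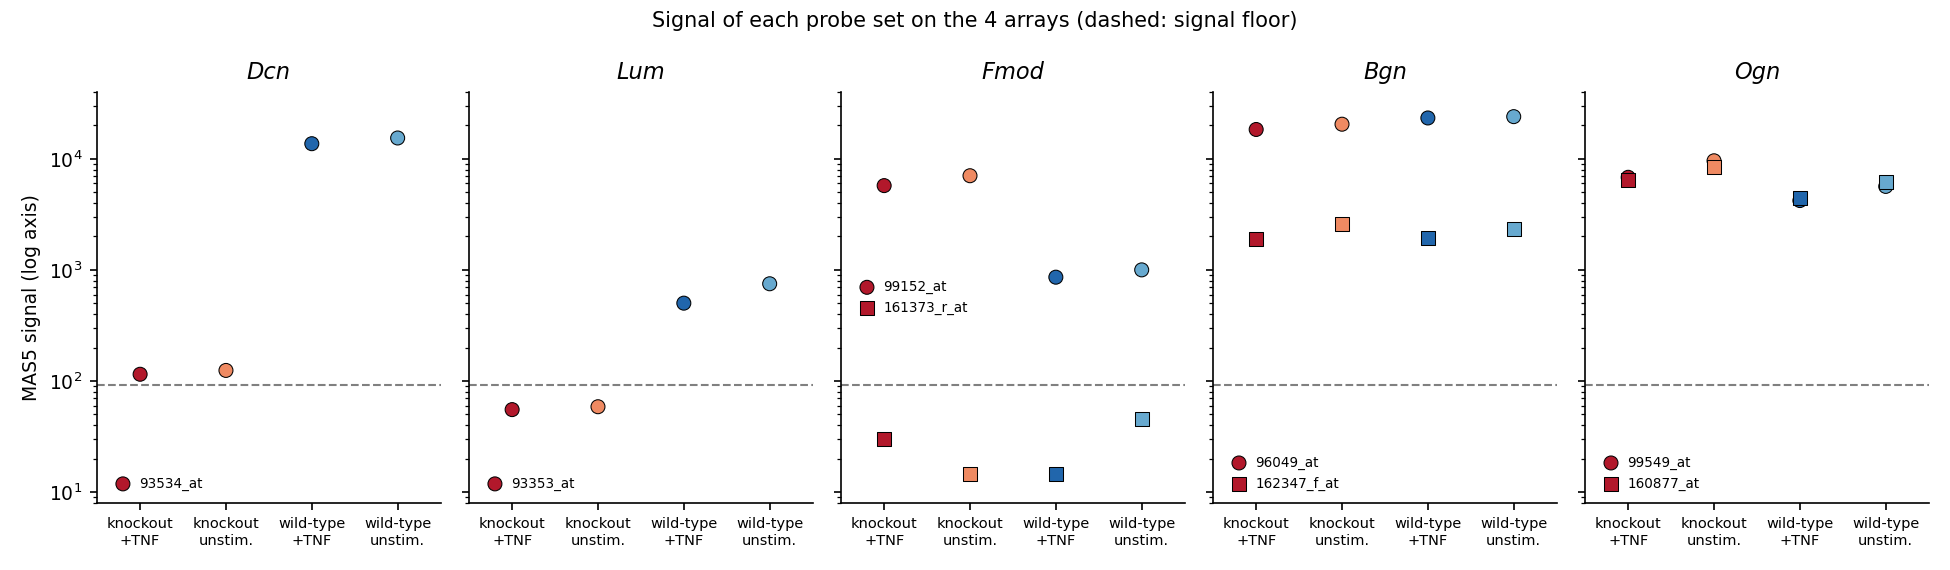
MAS5 signal of every probe set of the 5 genes on the 4 arrays (vertical log axis, 1 point per array), with the signal floor of 92.5 as a dashed line and circles and squares for the different probe sets of a gene. Dcn and Lum lie low on both knockout arrays, and the bright Fmod probe set lies high on them. Each probe set of Bgn lies at a similar level on the 4 arrays. Those of Ogn lie somewhat higher on the knockout array within each state.

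Dcn showed the widest gap. Decorin is the main dermatan sulfate proteoglycan of skin and tendon, and its loss in mice gives irregular collagen fibrils and fragile skin. The Dcn signal was 124 in unstimulated knockout cells, against 15414 in unstimulated wild-type cells. With TNF it was 115 in knockout cells, against 13693 in wild-type cells. Both knockout signals thus sat just above the floor while both wild-type signals were among the brightest 63 probe sets of their arrays. The ratio was 124-fold lower without TNF (log2 -6.95) and 119-fold lower with TNF (log2 -6.90). In each pair Dcn ranked lowest of all measured genes, 6062 without and 5852 with TNF. Signals this close to the floor leave the size of the ratio imprecise: with the floor raised to the 60th percentile of signals, it was at least 53.0-fold lower without TNF (log2 -5.73) and at least 47.1-fold lower with TNF (log2 -5.56).

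Lum was lower in the same direction. Lumican regulates fibril assembly in cornea and skin, and is needed for corneal transparency. Its signal was 58.6 in unstimulated knockout cells, against 750 in unstimulated wild-type cells. With TNF it was 55.2 in knockout cells and 502 in wild-type cells. Lum was below the floor on both knockout arrays and above it on both wild-type arrays, so only bounds can be given. It was at least 8.11-fold lower without TNF (log2 -3.02, rank 22 from the lowest) and at least 5.43-fold lower with TNF (log2 -2.44, rank 43). With the floor raised to the 60th percentile of signals, the bound under TNF shrank to 1.73-fold (log2 -0.79), below 2-fold.

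Dcn and Lum are neighbours on chromosome 10, followed by Kera and Epyc, which encode keratocan and epiphycan of the same family. In the RefSeq gene order of GRCm38.p6 no other protein-coding gene lies between these 4. Kera had signals of 20.0 to 29.5 and Epyc of 1.9 to 13.2, so both were below the floor on all 4 arrays and give no ratio. On the other side of Dcn, the nearest genes with a probe set were Btg1, an antiproliferative gene, and Eea1, an endosome tethering gene. Btg1 had a log2 ratio of knockout to wild-type of 1.25 without and 0.96 with TNF, and Eea1 of 1.02 and 0.52. The lower signal was thus seen for Dcn and Lum and not for the measured genes beside them. These neighbours were looked up after the values of the members were known.

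Fmod was higher in knockout cells. Fibromodulin binds collagen at the same site as lumican, and mice without it have abnormal tendon fibrils. The signal of its bright probe set was 7048 in unstimulated knockout cells, against 1001 in unstimulated wild-type cells. With TNF it was 5742 in knockout cells and 860 in wild-type cells. Fmod was 7.04-fold higher in knockout cells without TNF (log2 2.82, rank 26 from the highest) and 6.68-fold higher with TNF (log2 2.74, rank 28). The other Fmod probe set, of a type (_r) whose probes were picked under relaxed design rules, had signals of 14.4 to 45.8 and was below the floor on every array, so it neither repeats nor opposes the difference. Averaging both probe sets gives a log2 ratio of 1.41 without and 1.37 with TNF. The floored probe set enters this average as 0, so the average is no check of the bright one.

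Fibromodulin and lumican, relatives of the same class, therefore differed between the cultures in opposite directions, and so did decorin and fibromodulin. No ratio was formed between genes, since signals of different probe sets cannot be set against each other. In cultures a lower signal from fewer cells that make a transcript cannot be told apart from less RNA per cell.

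Bgn stayed near the wild-type level. Biglycan is the closest relative of decorin, matters for bone mass, and as a soluble protein can activate Toll-like receptors. Its brighter probe set had signals of 20514 in unstimulated knockout cells, against 23998 in unstimulated wild-type cells. With TNF it was 18391 in knockout cells and 23347 in wild-type cells. The knockout signals were lower by 0.23 and 0.34 on the log2 scale, and 61.2% and 49.7% of measured genes lay at least as far from 0. These signals ranked 6 to 17 from the brightest on their arrays, near the top of the scale, where bright probes may respond less than proportionally. The dimmer probe set, of a type (_f) that can match related transcripts, had 2590 in unstimulated knockout cells against 2335 in unstimulated wild-type cells, and 1904 against 1930 with TNF. Its log2 ratios of 0.15 and -0.02 differ in sign from each other, and the first also from the brighter probe set, so no direction can be given for Bgn.

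Bgn lies on the X chromosome, as Xiap does. The median log2 ratio of 170 measured X-linked genes was -0.02 in unstimulated and 0.01 in TNF-treated cells.

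Ogn was slightly higher in knockout cells by both of its probe sets. Osteoglycin is found around collagen fibrils in bone, skin and vessel walls. The first probe set had signals of 9608 in unstimulated knockout cells against 5647 in unstimulated wild-type cells, and 6823 against 4212 with TNF. The second had 8524 against 6223 without TNF, and 6446 against 4398 with TNF. Within each state the knockout array was the higher one for both probe sets, although for the second the TNF-treated knockout and unstimulated wild-type signals lay close together. The differences were 1.70-fold and 1.37-fold without TNF and 1.62-fold and 1.47-fold with TNF, all under 2-fold. For the first probe set 15.1% of measured genes lay at least as far from 0 without TNF and 21.2% with TNF.

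The neighbour of Ogn on chromosome 13 is Omd, which encodes osteomodulin of the same family. Omd was dim, at 173 in unstimulated knockout cells against 89.6 in unstimulated wild-type cells, and 113 against 42.5 with TNF. Both wild-type values were below the floor, so its log2 ratio is only bounded, at 0.90 or more without and 0.29 or more with TNF, and whether it reaches 2-fold cannot be told. Of the other family members, Chad, which encodes chondroadherin, had 182 against 120 without TNF and 158 against 187 with TNF. Its log2 ratios of 0.60 and -0.24 differ in sign. Of 13 further family members listed, 4 were on the array, 2 were measured, and none passed 2-fold.

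**Figure D2:**
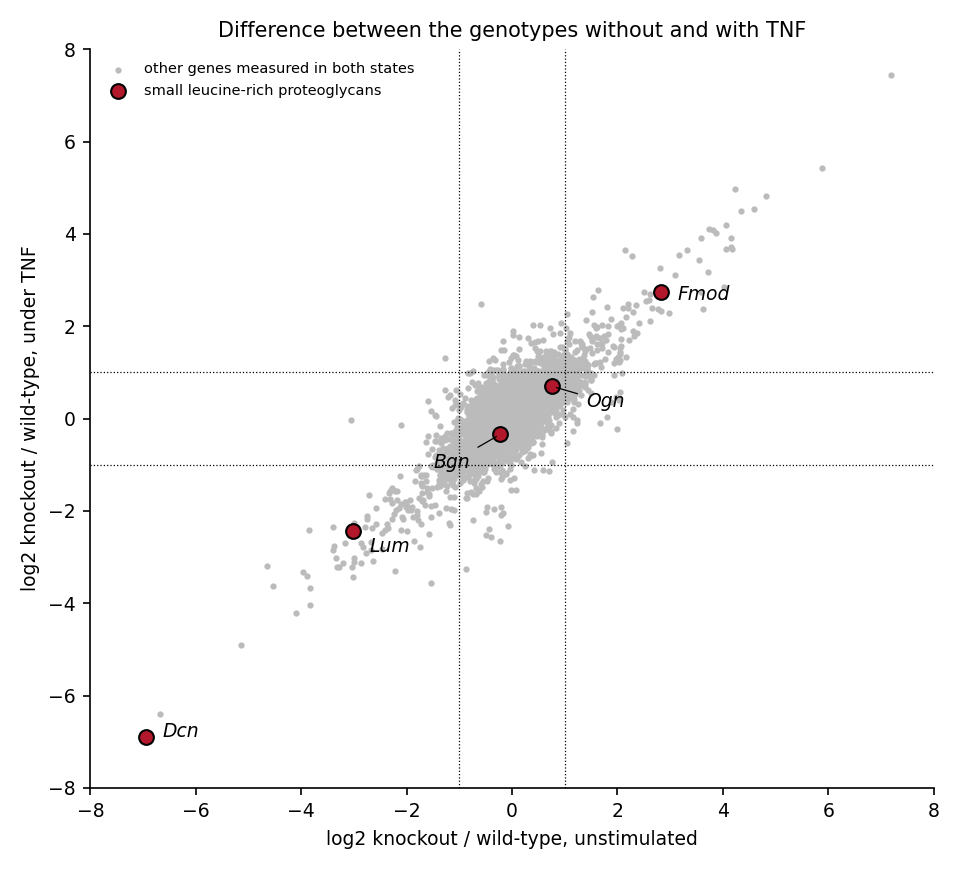
Log2 ratio of knockout to wild-type signal without TNF (horizontal) and with TNF (vertical) for each gene measured in both states, after flooring, with dotted lines at 2-fold. Dcn is the lowest gene on both axes, Lum lies low and Fmod high on both, and Bgn and Ogn lie inside the dotted lines.

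With TNF, the signals of the measured members were a little lower than without it, and none passed 2-fold in either genotype. In knockout cells 4 of 5 genes were measured and 0 passed, where 1.89% of 5868 genes passed 2-fold. In wild-type cells all 5 were measured and 0 passed, where 5.24% of 5911 genes passed. All 4 measured genes in knockout cells and all 5 in wild-type cells had a log2 ratio below 0. Of all measured genes, 58.6% were below 0 in knockout and 60.7% in wild-type cells, with medians of -0.04 and -0.10. The wild-type directions depend on the scaling: with array medians made equal the median of all genes moved to 0.18, and the ratios of Dcn, Fmod and Bgn turned to 0.11, 0.06 and 0.24.

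Ogn and Lum had the lowest ratios among the members. From the signals given above, Ogn with TNF was lower by 1.41-fold in knockout cells (log2 -0.49) and by 1.34-fold in wild-type cells (log2 -0.42), and its second probe set gave -0.40 and -0.50. In knockout cells 10.0% of measured genes lay at least as far from 0 as Ogn, against 31.5% in wild-type cells. Lum was lower by 1.49-fold with TNF in wild-type cells (log2 -0.58), as far from 0 as 19.8% of genes, and could not be measured in knockout cells. For both genes the ratio stayed below 0 under every alternative scaling and floor tried, where it could be measured.

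Fmod had log2 ratios of -0.30 in knockout and -0.22 in wild-type cells. Dcn had -0.11 and -0.17, the first of these resting on signals near the floor. The brighter Bgn probe set had -0.16 and -0.04, and the dimmer one -0.44 and -0.27. Every probe set measured in both genotypes thus pointed the same way in each with the deposited scaling.

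**Figure D3:**
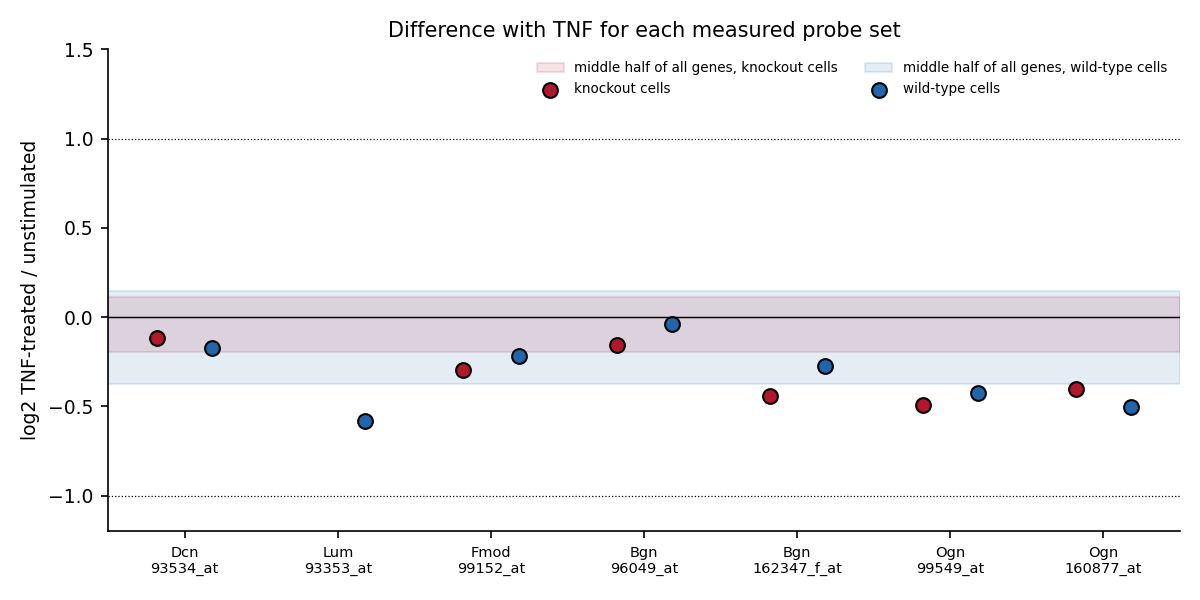
Log2 ratio of TNF-treated to unstimulated signal for each probe set above the floor on at least 1 array, in knockout cells (red, left) and wild-type cells (blue, right), with shaded bands from the first to the third quartile of all measured genes and dotted lines at 2-fold. All points lie below 0 and inside the dotted lines, and Lum has no knockout point because both signals were below the floor.

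The difference of response is the log2 ratio with TNF of the knockout less that of the wild type. It was small for the members measured in both. Its value was 0.06 for Dcn, -0.08 for Fmod, -0.12 for Bgn and -0.07 for Ogn. The second Ogn probe set gave 0.10, and Dcn moved to -0.18 with array medians made equal, so neither gene has a settled direction. The 0.58 of Lum comes from the wild-type cells alone, because both knockout signals were at the floor. None of the 5 passed 2-fold, where 3.66% of 6174 genes did. No test of this difference was possible.

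Genes of the same matrix were read beside the members, from lists chosen by function. For comparison, 4.55% of all measured genes were 2-fold higher and 4.7% lower in unstimulated knockout cells. Under TNF these shares were 5.62% and 5.01%. With TNF, 1.89% of measured genes passed 2-fold in knockout and 5.24% in wild-type cells. The lists are short, so their counts are only described. Among collagens of fibrils and their surface, 12 of 15 were measured, 1 was higher and 1 lower in unstimulated knockout cells, and the median log2 ratio was -0.02. Col14a1, a collagen that decorin binds on the fibril surface, was at least 3.32-fold lower without TNF and at least 2.64-fold lower with TNF. Its signals were 66.8 and 80.5 in TNF-treated and unstimulated knockout cells, against 244 and 307 in wild-type cells. Col6a3 just passed 2-fold, at 5905 in unstimulated knockout cells against 2950 in unstimulated wild-type cells, and was 2.16-fold higher with TNF. Col6a1 and Col6a2, named because their chains join that of Col6a3 in collagen VI, had log2 ratios of 0.82 and 0.89 without TNF. Fibrillar Col1a1 and Col1a2, the chains of collagen I, had -0.18 and -0.04. Under TNF, 2 collagens (Col6a2 and Col6a3) were higher and 1 (Col14a1) was lower in knockout cells. No collagen passed 2-fold with TNF in either genotype.

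For collagen processing and crosslinking, 8 of 15 genes were measured. P4ha1, a prolyl hydroxylase subunit, was 2.04-fold higher in unstimulated knockout cells and 1.64-fold higher under TNF, and no other gene passed (median log2 -0.06). Of 29 genes of glycosaminoglycan chain synthesis and sulfation, 11 were measured, with 1 higher, 0 lower and a median of 0.27 without TNF. Chst2, which sulfates N-acetylglucosamine as found in keratan sulfate, was at least 2.77-fold higher without TNF and 3.54-fold higher with TNF. Under TNF 1 gene of this list was also lower, B3galt6, a galactosyltransferase of the linkage region, at 122 in knockout cells against 262 in wild-type cells. In neither list did a gene pass 2-fold with TNF in either genotype.

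Other proteoglycans had 3 higher and 1 lower of 16 measured in unstimulated knockout cells, with a median log2 ratio of 0.03. Vcan, which encodes the large hyaluronan-binding proteoglycan versican, was 6.81-fold higher, at 1755 in unstimulated knockout cells against 258 in unstimulated wild-type cells, and 5.20-fold higher with TNF. Sdc1, a cell surface heparan sulfate proteoglycan, was 2.27-fold and 2.41-fold higher. Spock2, a testican, was at least 2.06-fold and at least 2.65-fold higher. Agrn, the heparan sulfate proteoglycan agrin, was 3.39-fold lower without and 2.03-fold lower with TNF. Under TNF 4 of these genes were higher in knockout cells, the fourth being the brain proteoglycan gene Bcan (log2 1.04, a bound, against -0.75 without TNF), and 1 was lower. With TNF, 1 of 16 was higher in knockout cells, the hyaluronan receptor gene Cd44 (log2 1.04). In wild-type cells 1 of 14 was higher, again Cd44 (log2 1.65), and 1 was lower, the syndecan gene Sdc3 (log2 -1.32, a bound).

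The list of ligands, receptors and partners bound by these proteoglycans had 1 gene higher and 1 lower of 16 measured without TNF (median 0.23). Igf1r, a receptor that decorin binds, was 2.24-fold higher in unstimulated and 1.85-fold higher in TNF-treated knockout cells. Ccn2, a matricellular protein that decorin binds, was 2.75-fold lower without TNF and 1.40-fold lower with TNF. Tgfb1 had log2 ratios of 0.04 and 0.06, and Tgfb2 of 0.58 and 0.68. Under TNF none of 13 measured genes passed between genotypes. With TNF, 0 of 15 passed in knockout cells and 1 of 15 was lower in wild-type cells, the VEGF receptor gene Kdr (log2 -1.03, a bound).

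Among proteases known to cut these proteoglycans, 4 of 14 were measured without TNF, of which 0 were higher and 2 lower in knockout cells. Mmp3, stromelysin, which cuts decorin, had a signal of 10.6 in unstimulated knockout cells against 738 in unstimulated wild-type cells, at least 7.98-fold lower. With TNF it was 391 in knockout cells and 1891 in wild-type cells, 4.83-fold lower. Mmp13, a collagenase that cuts fibromodulin, was 3.02-fold lower without TNF and 1.30-fold higher with TNF. Mmp3 and Mmp13 were the genes of this list that passed 2-fold with TNF, both higher in each genotype, at least 4.23-fold and 17.0-fold in knockout cells against 2.56-fold and 4.33-fold in wild-type cells.

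**Figure D4:**
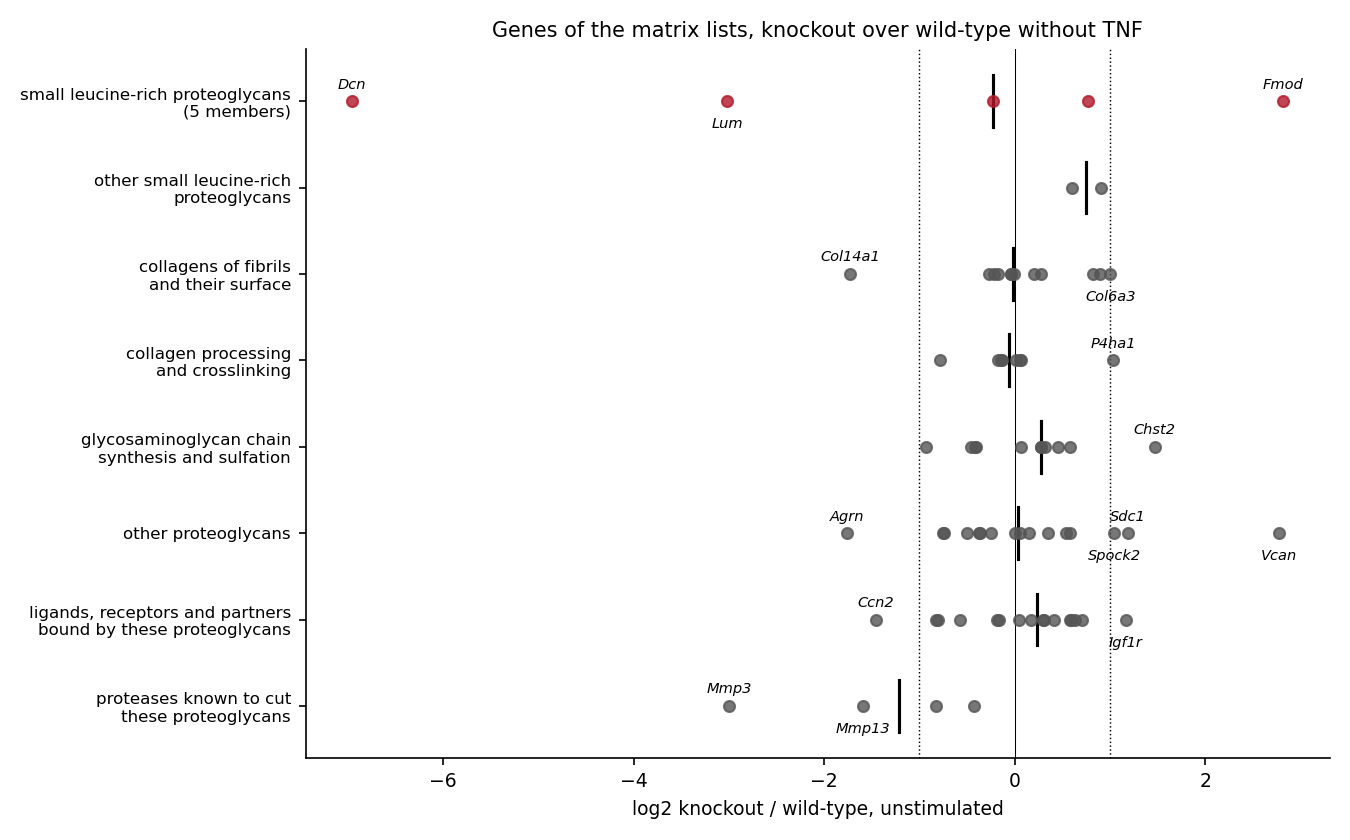
Log2 ratio of knockout to wild-type signal without TNF for every measured gene of each list (1 point per gene, short bars at the list medians, dotted lines at 2-fold, genes past 2-fold named). The 5 proteoglycans in red reach from Dcn at -6.95 to Fmod at 2.82, and the points of the other lists reach from Mmp3 at -3.00, a bound, to Vcan at 2.77.

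Markers of fibroblasts were above the floor for 9 of 11 genes in TNF-treated knockout cells and for 10 of 11 on each of the other arrays. Their summed signals were 60556 and 63409 in TNF-treated and unstimulated knockout cells, against 61513 and 64347 in wild-type cells. Most of each sum came from Col1a1, Col1a2 and Col3a1, at 22927, 19863 and 11968 in unstimulated knockout cells. In unstimulated wild-type cells these had 25901, 20439 and 10444, so the sums say little about the other markers. Vim, the usual mesenchymal marker, had signals of only 42.1 to 94.5. Within the list Thy1 (log2 -1.86 without TNF) and Fap (at least 3.40-fold lower) were lower in knockout cells, and S100a4 (log2 1.60) was higher. Smooth muscle markers summed to 25253 and 25903 in TNF-treated and unstimulated knockout cells, against 18252 and 16686 in wild-type cells, with 5 of 7 above the floor on every array. Of 5 measured, 3 were at least 2-fold higher in unstimulated knockout cells (median log2 1.20), as were 4.55% of all measured genes. These 3 were the smooth muscle contractile genes Smtn (4.07-fold), Cnn1 (4.03-fold) and Tagln (2.29-fold). The other measured markers, Acta2 (log2 0.37 without TNF) and Actg2 (log2 0.01), stayed within 2-fold, and Myh11 and Des were below the floor on every array. Under TNF 1 of the 5 passed, Cnn1 (2.52-fold). Of 2 tendon markers on the array 1 was above the floor, the tendon transcription factor gene Scx. It had signals of 1543 and 2104 in TNF-treated and unstimulated knockout cells, against 627 and 1113 in wild-type cells. The part of these marker differences in the proteoglycan results was not tested.

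Markers of other cell types were mostly dim, though no marker gene was at 0. The leukocyte gene Ptprc had signals of 4.5 to 9.2 and the epithelial gene Epcam of 3.3 to 6.4, both among the dimmest of their lists. Brighter markers were epithelial Cdh1 (296.8 to 530.5), neural Tubb3 (1662 to 3809) and endothelial Flt1 (30.3 to 1172). Neural markers summed to 4124 and 3410 in TNF-treated and unstimulated knockout cells, against 2549 and 2030 in wild-type cells. Of leukocyte markers 3 or 4 of 9 were above the floor, led by Cd14, and summed to 3011 and 2904 in TNF-treated and unstimulated knockout cells, against 1848 and 2556 in wild-type cells. Of cartilage markers 3 of 9 were above it on each knockout array, against 2 of 9 on each wild-type array, and their sums were 1158 and 1329 against 890 and 1097. Bone had 1 of 4, fat 1 of 4 in knockout and 3 of 4 in wild-type cells, epithelium 1 of 7 and neural tissue 2 or 3 of 6. Endothelium had 3 of 7 in unstimulated wild-type cells and 1 of 7 on the other arrays, and skeletal muscle 3 and 4 of 7 in TNF-treated and unstimulated knockout cells, against 2 of 7 on each wild-type array.

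Genes with a course most like that of each member were sought among the 6174 genes above the floor on at least 1 array. Likeness was the root mean square difference between the centred log2 signals over the 4 arrays, where 0 means an identical course. Signals below the floor entered at the floor, so distances that involve them, and the order and counts of near genes, depend on it. This holds for both knockout arrays of Lum, C1qtnf3, Cdkn2b and Smim1 and both wild-type arrays of Cdkn1c. At this floor 2 genes came within 1 of Dcn: Plac8, a small cysteine-rich protein gene, at 0.25, and C1qtnf3, a secreted C1q-related protein gene, at 0.95. The cyclin-dependent kinase inhibitor gene Cdkn2b was the next, at 1.39. Plac8 had signals of 96.4 in unstimulated knockout cells against 9909 in unstimulated wild-type cells, and 120 against 10104 with TNF.

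For Lum the nearest were Smim1, Mir686 and Vegfd, at 0.10, 0.13 and 0.14, of 339 genes within 1. Vegfd, a lymphatic growth factor gene, had signals of 496 in unstimulated knockout cells against 3354 in unstimulated wild-type cells, and 466 against 2106 with TNF. For Fmod they were Lsp1, Ccn5 and Cdkn1c, at 0.07, 0.07 and 0.14, of 383 genes within 1. Ccn5, a matricellular protein gene, had 2148 against 325 without TNF and 1638 against 248 with TNF in knockout and wild-type cells. For Bgn they were Ccdc93, Vamp8 and Trappc2l, all at 0.02, and for Ogn Echs1, Tmem141 and Timp2, at 0.03, 0.04 and 0.04. There 5996 and 5891 genes came within 1, so likeness to Bgn or Ogn sets few genes apart.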

How the data were processed

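Total RNA from 4 cultures was measured on 4 arrays, grouped by their titles. The authors deposited linear intensities per probe set (signals below), which per the submitters' processing notes come from MAS5. The sources used here give no detection calls, background settings or genome build. The file holds 12488 probe sets, of which 66 are controls.

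Signals were scaled to a common mean trimmed by 2% at each end (factor 1), raised to a floor of 92.5 and converted to log2 with Python 3.11.15, numpy 2.4.6 and pandas 2.3.3. Each gene was represented by its brightest probe set on average. Symbols came from the platform annotation, updated through Entrez identifiers. The step that counts fold changes was checked on simulated data, with changes put only into probe sets that started well above the floor. That check says little about signals near or below the floor, as for Dcn and Lum in knockout cells. Intervals and p-values need replicates, of which there are none, so precision is limited by the number of arrays.

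Named genes were all members, up to 4 genes per list past 2-fold between the unstimulated genotypes by size of change, Xiap, Xist, Eif2s3y and the 3 genes nearest in course to each member. Other genes named, among them chromosome neighbours, collagen chains, TGF-beta genes, markers and genes past 2-fold only in another comparison, were chosen after their values were seen. The members and lists were chosen with earlier results of these data known. Alternatives were other floors (20th and 60th percentile, or a signal of 1), scalings and choices of probe set.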

Additional observations from a re-analysis of the deposited data

How the results depend on the processing

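Between the genotypes 3 of the 5 proteoglycan genes passed 2-fold in each state as reported. The count fell to 2 under TNF with the floor at the 60th percentile, and in both states with the probe set of lowest mean signal. Of the recomputed member ratios, 185 of 186 kept their side of 2-fold. The exception was Lum under TNF with the floor at the 60th percentile, at -0.79 on the log2 scale. Many of these ratios could not change. Floors leave bright genes as they were, signals as deposited had a scaling factor of 1, and Dcn and Lum have a single probe set. Using the probe set with the lowest mean signal left Fmod unmeasured. The number of genes past 2-fold depended on the floor. With the floor at the 20th percentile, at the 60th percentile and with none other than a signal of 1 it was 981, 316 and 1284 between unstimulated genotypes (561 as reported), 1134, 330 and 1613 between genotypes under TNF (622), 357, 62 and 685 with TNF in knockout cells (111), 893, 135 and 1402 with TNF in wild-type cells (310), and 844, 70 and 1407 for the difference of response (226). More or fewer dim genes enter with the floor. The split of higher and lower genes with TNF in wild-type cells was 156 and 154 as reported, 192 and 82 after quantile normalization and 282 and 68 with equal medians. Under TNF between genotypes it was 329 and 293 as reported and 240 and 441 with equal medians. For the difference of response it was 156 and 70, 102 and 102 after quantile normalization, and 88 and 147 with equal medians. Signals as deposited gave the same counts. No paired analysis was possible because each group has 1 array. Depth does not apply to arrays; signals near or below the floor limit Dcn and Lum in knockout cells.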
